A study of Mus musculus with 5 samples.

Results

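The mitochondrial carriers of the Slc25 family, the uncoupling proteins (Ucp genes) included, were followed in liver tumours with and without forced expression of the transcription factor Prox1. All mouse genes with an Slc25a or Ucp symbol were taken, and those with a mean of at least 10 normalised read counts over the 5 libraries were tested. Of 50 such genes listed among 55397, 43 passed this minimum, and 17105 genes passed it in all. A normalised read count is a gene's reads divided by the size factor of its library.

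Mitochondrial carriers are proteins of the inner mitochondrial membrane that exchange metabolites, nucleotides, cofactors and ions between the cytosol and the matrix. In hepatocytes they link the matrix to cytosolic pathways. Citrate leaves for fatty acid synthesis, ornithine and citrulline are exchanged for the urea cycle, aspartate and malate move reducing equivalents and carbon for gluconeogenesis, and acylcarnitines enter for oxidation. Most carriers are made in the cytosol and inserted into the inner membrane by the TIM22 complex.

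The tumours were started in female C57BL/6N mice of 8 weeks by hydrodynamic tail vein injection, which delivers plasmids mainly to hepatocytes. Every mouse of both groups received 4 µg of Sleeping Beauty transposase (CMV promoter) and 10 µg of plasmids that express AKT (pT3-EF1a-AKT) and the NOTCH intracellular domain NICD together with the doxycycline-responsive activator rtTA (pT3-EF1a-NICD-IRES-rtTA). The 3 Prox1 OE tumours also carried pT3-Tre-FLAG-mmProx1-IRES-GFP, and the 2 Control tumours pT3-Tre-IRES-GFP. A 6.25% doxycycline diet from day 21 switched on the Tre promoter in both groups, for Prox1 overexpression from week 3 to 4, and the labels allow collection after a week or at humane endpoint without saying which applied. Integration of the transposons is random and differs between tumours, and dissected pieces can hold liver and stroma beside transformed cells.

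Libraries held 48740863 to 56629477 reads. The 10 most abundant genes made up 9.37 and 10.1% of all counts in Control and 13.2 to 15.1% in Prox1 OE. Prox1 itself was at 4153 and 4664 normalised counts in Control and at 48090, 11113 and 8231 in Prox1 OE, so the groups did not overlap and Prox1 OE replicate 1 stood far above the others (log2 fold change 1.90, limma adjusted p = 0.0607). All 8 hepatocyte markers were called higher, with a summed level of 704495 and 1148938 in Control and 2528400 to 3961757 in Prox1 OE. Of 6 cholangiocyte markers 5 were called lower, such as Krt19 at 8442 and 10790 in Control and 1643 to 1968 in Prox1 OE, while the sum over the list (751642 and 821126 against 522060 to 705558) was mostly Spp1, the marker that was not called (-0.34). None of the hepatocyte markers and 3 cholangiocyte markers were called without Control replicate 1. Lists of other cell types were called in part, where 17.1% of all genes were called higher and 16.2% lower. Lymphocyte markers were called higher in 4 of 5 tested (summed levels of 173 and 198 in Control and 359 to 475 in Prox1 OE, and 0 of 5 called without Control replicate 1 or 2), macrophage markers in 2 of 6 (Clec4f and Cd5l, with sums of 10643 and 11987 against 18835 to 26966), and the stellate list gave Lrat higher and Col1a1 lower (-1.23) of 4. Of 3 endothelial markers Stab2 was called higher (1.04). Kdr (0.44) and Pecam1 (-0.27, every Prox1 OE library below both Control libraries) were not called. Without Control replicate 1, 1 macrophage marker and no endothelial marker was called. In bulk tumours fewer cells of a type and less RNA per cell cannot be told apart, and the part of this shift in the carrier values below was not tested.

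Carriers were more often higher than lower in the Prox1 OE tumours. Of the 43, 19 were called higher, 3 lower and 21 not called (limma on log2(normalised count + 1), Benjamini-Hochberg over all 17105 genes, adjusted p under 0.05). Over all genes tested 17.1% were called higher, 16.2% lower and 33.3% in either direction. The median log2 fold change of the carriers was 0.40, against -0.02 for all genes. With a minimum log2 size of 1, 9 carriers were higher and 1 was lower, where 8.35% and 5.55% of all genes were. For 25 carriers the Prox1 OE values were all above those of Control and for 7 all below, where the shares of all genes were 30.9% and 32.4%.

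These counts depended on the scaling and on the Control libraries. With total counts as library size, 10 carriers were called higher and 9 lower, where 8.62% of all genes were higher and 39.9% lower. The median over all genes was then -0.44 and that of the carriers -0.03 (another library size shifts all genes alike, so the distance between these medians hardly changes by construction). The 9 carriers that lost their call then were Slc25a11, Slc25a13, Slc25a17, Slc25a23, Slc25a34, Slc25a37, Slc25a44, Slc25a45 and Slc25a5 (log2 fold changes of 0.08 to 0.56 under that scaling), and the 6 that gained a call, as lower, were Slc25a14, Slc25a27, Slc25a30, Slc25a4, Slc25a43 and Slc25a51 (-1.27 to -0.47). Without Control replicate 1, 6 carriers were called higher and 1 lower (3.98% and 2.79% of all genes), and without Control replicate 2, 10 and 1 (8.4% and 4.88%). Without Prox1 OE replicate 1, the library with the highest Prox1, 23 were called higher and 4 lower (21.9% and 21.9%). All 22 called carriers kept their direction in the 16 alternative fits, and 7 were called in every fit that left out a library, namely Slc25a47, Slc25a22, Slc25a10, Slc25a1, Slc25a39, Slc25a20 and Slc25a36.

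**Figure D1:**
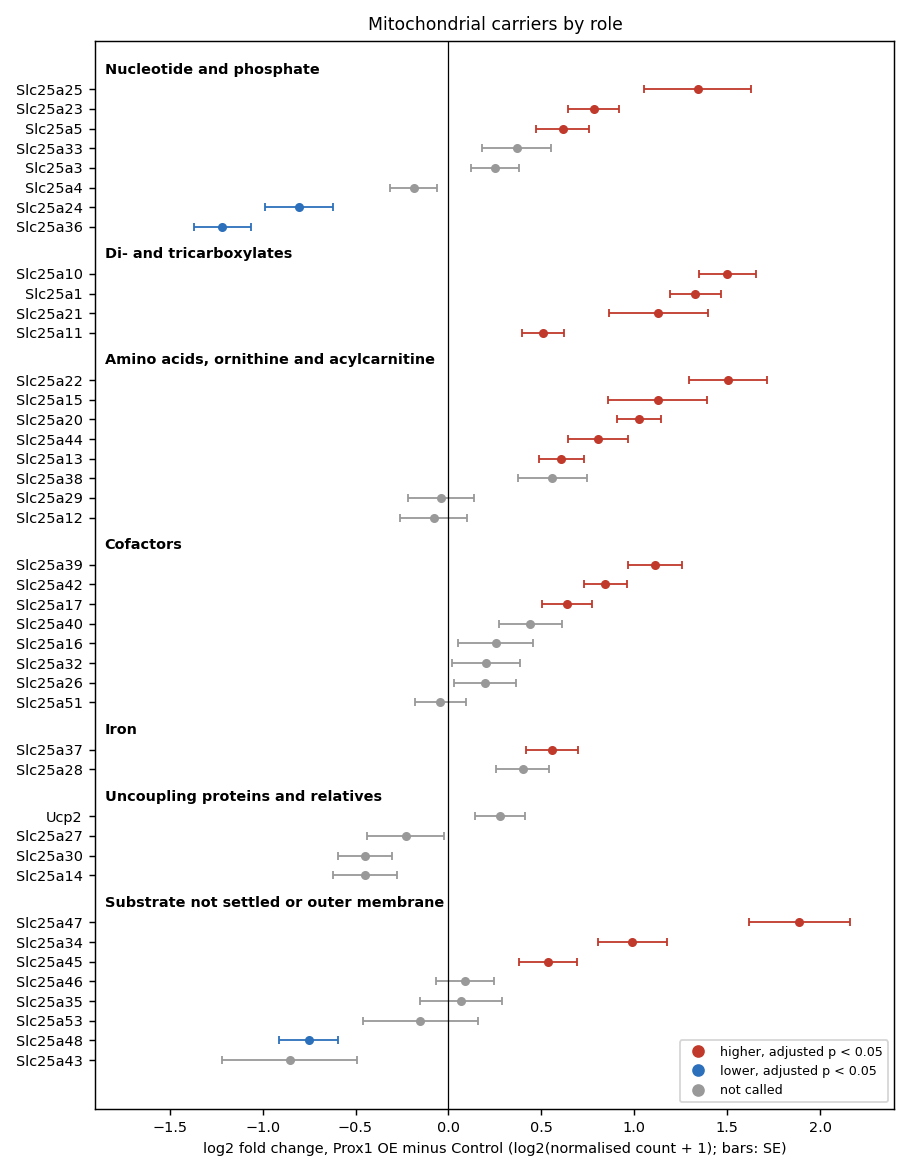
Log2 fold change (Prox1 OE minus Control, horizontal axis, on log2(normalised count + 1)) of the tested carriers, grouped by role, with bars for 1 SE. All 4 di- and tricarboxylate carriers lie right of 0 between 0.51 and 1.50, and the carriers called lower (Slc25a36, Slc25a24 and Slc25a48) lie between -1.22 and -0.75.

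The di- and tricarboxylate carriers were all called higher, 4 of 4, with a median log2 fold change of 1.23. Slc25a10, the dicarboxylate carrier that exchanges malate or succinate for phosphate, was at 6311 and 8139 normalised counts in Control and at 22181, 18483 and 20362 in Prox1 OE. The lowest Prox1 OE library was 2.27 times the highest Control library, and the difference was 1.50 on the log2 scale (SE 0.15, limma adjusted p = 0.00234). Slc25a1, the citrate carrier that brings citrate out for acetyl-CoA supply in the cytosol, was at 6548 and 7515 in Control and at 16761, 16522 and 19750 in Prox1 OE. The groups did not overlap, with a difference of 1.33 (SE 0.14, limma adjusted p = 0.00234). The oxodicarboxylate carrier Slc25a21 was at 225 and 280 in Control and at 565, 400.0 and 737 in Prox1 OE, with a log2 fold change of 1.13 (SE 0.26, limma adjusted p = 0.0168). Slc25a11, the oxoglutarate and malate carrier of the malate-aspartate shuttle, was at 4640 and 4612 in Control and at 6161, 6503 and 7108 in Prox1 OE, a smaller difference of 0.51 (SE 0.11, limma adjusted p = 0.0143). Leaving out Control replicate 1 or 2 ended the calls of Slc25a21 (log2 fold change then 0.97 and 1.29) and Slc25a11 (0.51 and 0.50). Slc25a10 and Slc25a1 were called in every such fit.

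The start regions of these 2 genes, the most strongly raised of the group, are shown with the motifs found in them, of which the GC box is shared by most carriers. Each line holds 300 bases around the RefSeq start site in build GRCm38.p6, read 5′ to 3′ on the gene's strand, with most of the window upstream of the start. Slc25a10 lies at chr11:120491587-120491886 on the plus strand and Slc25a1 at chr16:17928170-17928469 on the minus strand. Capitals mark matches, on either strand, to the GC box (GGGCGG), the CCAAT box (CCAAT), the E box (CACGTG) and the NRF1 motif.
Slc25a10: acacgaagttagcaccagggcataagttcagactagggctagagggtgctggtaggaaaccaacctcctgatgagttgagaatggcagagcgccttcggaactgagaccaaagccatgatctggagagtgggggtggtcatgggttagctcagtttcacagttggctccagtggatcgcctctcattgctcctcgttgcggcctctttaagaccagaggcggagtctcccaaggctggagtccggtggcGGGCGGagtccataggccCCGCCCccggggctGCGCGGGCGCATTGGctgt
Slc25a1: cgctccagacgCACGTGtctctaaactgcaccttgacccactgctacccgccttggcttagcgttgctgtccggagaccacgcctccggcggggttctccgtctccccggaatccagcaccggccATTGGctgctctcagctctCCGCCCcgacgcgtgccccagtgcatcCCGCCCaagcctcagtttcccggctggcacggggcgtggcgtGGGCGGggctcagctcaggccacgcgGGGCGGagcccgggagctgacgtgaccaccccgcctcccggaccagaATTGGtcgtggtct
Slc25a10 held an NRF1 match next to a CCAAT box, and Slc25a1 held an E box and 4 GC boxes.

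Carriers of amino acids, ornithine and acylcarnitine were higher in 5 of 8 tested genes and lower in none, with a median of 0.71 (0.28 and 3 higher with total counts as library size, and 2 higher without Control replicate 1). Slc25a22, which brings glutamate into the matrix, was at 1816 and 2293 in Control and at 4466, 6007 and 7255 in Prox1 OE. It was higher by 1.51 on the log2 scale (SE 0.21, limma adjusted p = 0.00334), with no overlap between the groups. Slc25a15, the ornithine carrier of the urea cycle, was at 4360 and 6030 in Control and at 8350, 10707 and 15658 in Prox1 OE, a difference of 1.13 (SE 0.27, limma adjusted p = 0.0172). Slc25a20, which exchanges carnitine for acylcarnitines in fatty acid oxidation, was at 3741 and 4328 in Control and at 7790, 8142 and 8665 in Prox1 OE. The Prox1 OE libraries of Slc25a20 lay close together (the highest was 1.11 times the lowest), with a log2 fold change of 1.03 (SE 0.12, limma adjusted p = 0.00255). Slc25a44, a carrier of branched-chain amino acids, was also called higher (0.81). Slc25a15 lost its call without Control replicate 1 (adjusted p = 0.146) without Prox1 OE replicate 2 (0.0566) and with limma without the trend (0.0551), and Slc25a44 without Control replicate 1 (0.11).

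Both aspartate-glutamate carriers of the malate-aspartate shuttle were expressed, and 1 of them was called. Slc25a13 (citrin), the form typical of liver, was at 3046 and 2941 in Control and at 4748, 4076 and 4901 in Prox1 OE (log2 fold change 0.61, SE 0.12, limma adjusted p = 0.00992). Slc25a12 (aralar), the form typical of muscle and brain, was at 1498 and 1259 in Control and at 1616, 1162 and 1168 in Prox1 OE. The groups of Slc25a12 overlapped (-0.08, SE 0.18, limma adjusted p = 0.755). The call of Slc25a13 was lost with either Control library left out, where its log2 fold change was 0.63 (without replicate 1) and 0.58 (without replicate 2). The glycine carrier Slc25a38, needed for haem synthesis, had a difference of 0.56 and missed the threshold (limma adjusted p = 0.0537), and passed it with edgeR (0.0462), DESeq2 (0.0223) and without Prox1 OE replicate 1 (0.72, adjusted p = 0.0088), and it was 0.13 with total counts as library size (adjusted p = 0.565). Slc25a29, a carrier of basic amino acids, differed by -0.04 (limma adjusted p = 0.88).

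**Figure D2:**
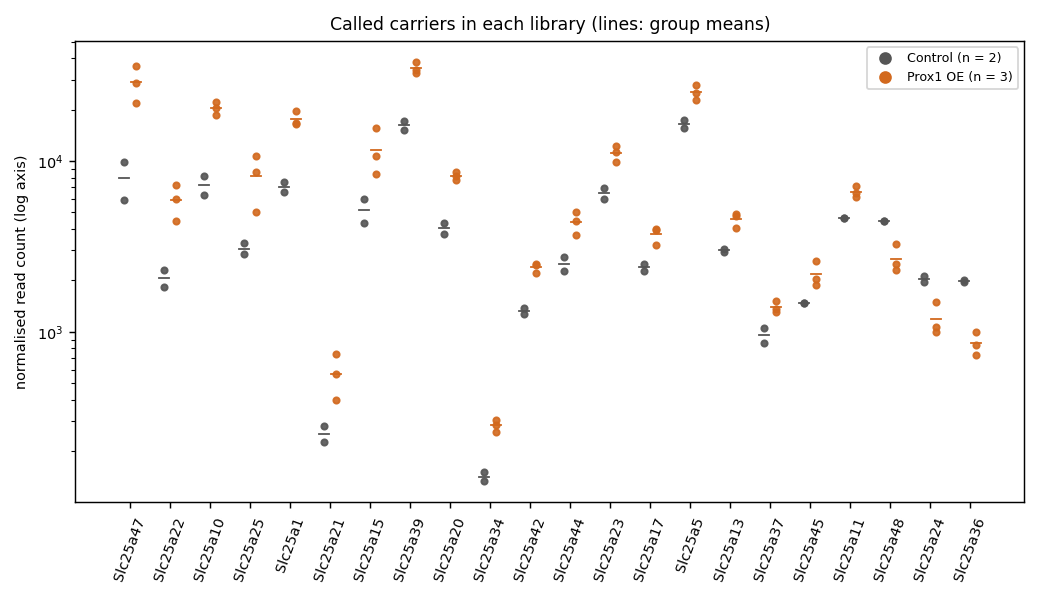
Normalised read counts (log axis) of the 22 called carriers in each of the 2 Control and 3 Prox1 OE libraries, with a line at each group mean. Points of the groups overlap for none of them, and the spread within Prox1 OE is widest for Slc25a25, where the highest library is 2.12 times the lowest.

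Nucleotide and phosphate carriers moved in both directions, 3 of 8 higher and 2 lower, with a median of 0.31 (-0.12, 1 higher and 3 lower, with total counts as library size). Among the ADP/ATP carriers, which exchange matrix ATP for cytosolic ADP, Slc25a5 was at 15605 and 17354 in Control and at 25162, 22805 and 27842 in Prox1 OE. It was called higher at 0.61 (SE 0.14, limma adjusted p = 0.0167), though not without Control replicate 1 (0.182) or replicate 2 (0.0881). Slc25a4, the ADP/ATP carrier of heart and muscle, was at 6664 and 5835 in Control and at 5772, 5759 and 4949 in Prox1 OE. Every Prox1 OE library of Slc25a4 lay below both Control libraries, and the difference did not pass the test (-0.19, SE 0.13, limma adjusted p = 0.29), and with total counts as library size it was called lower (-0.62, adjusted p = 0.0163). The phosphate carrier Slc25a3, which feeds ATP synthesis, was at 16944 and 17455 in Control and at 19589, 19670 and 22303 in Prox1 OE, a difference of 0.25 that did not pass (SE 0.13, limma adjusted p = 0.169) and that was -0.18 with total counts as library size. Reads of Slc25a5 could be shared with 3 gene copies at least 95% identical, which together had a mean of 39.6 normalised counts.

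The calcium-regulated ATP-Mg/phosphate carriers were split. Slc25a25 was at 2842 and 3301 in Control and at 5062, 8610 and 10722 in Prox1 OE. It was higher by 1.34 (SE 0.29, limma adjusted p = 0.0125), and the lowest Prox1 OE library was 1.53 times the highest Control library. Slc25a24 was at 2116 and 1954 in Control and at 1487, 1063 and 999 in Prox1 OE, lower by -0.80 (SE 0.18, limma adjusted p = 0.0156). Slc25a23, of the same subgroup, was higher by 0.78. Neither Slc25a25 (adjusted p = 0.0996, 0.0534 and 0.0537) nor Slc25a24 (0.127, 0.0762 and 0.0583) passed without Control replicate 1, Control replicate 2 or Prox1 OE replicate 2, and Slc25a23 missed without Control replicate 1 (0.0906).

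Slc25a36, a carrier of pyrimidine nucleotides, had the largest decrease among the 43 carriers in the fit to all libraries. It was at 1949 and 2000 in Control and at 995, 732 and 838 in Prox1 OE, so that the mean level was 0.433 times that of Control (log2 fold change -1.22, SE 0.15, limma adjusted p = 0.00276). The call held with each library left out. Slc25a33, a related carrier of the same substrates, was at 749 and 932 in Control and at 879, 1166 and 1223 in Prox1 OE, and the groups overlapped (0.37, SE 0.18, limma adjusted p = 0.161, and -0.06 with total counts as library size), though without Prox1 OE replicate 1 it was called higher (0.51, adjusted p = 0.0307). The start region of Slc25a36, the decreased carrier, is at chr9:97110992-97111291 on the minus strand, with an E box, a CCAAT box and a GC box in capitals.
Slc25a36: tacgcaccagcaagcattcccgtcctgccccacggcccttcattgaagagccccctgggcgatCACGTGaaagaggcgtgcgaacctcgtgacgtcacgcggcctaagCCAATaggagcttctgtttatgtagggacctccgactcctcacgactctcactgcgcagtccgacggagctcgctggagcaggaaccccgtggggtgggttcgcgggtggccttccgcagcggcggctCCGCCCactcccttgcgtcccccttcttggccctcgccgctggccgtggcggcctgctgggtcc

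Cofactor carriers were higher in 3 of 9 genes and lower in none, with a median of 0.37 (-0.06, 2 higher and 1 lower, with total counts as library size). Slc25a39, which carries glutathione into the matrix, was at 15166 and 17273 in Control and at 32875, 34045 and 38182 in Prox1 OE. The lowest Prox1 OE library was 1.90 times the highest Control library (log2 fold change 1.11, SE 0.14, limma adjusted p = 0.00287). Its relative Slc25a40 was far lower, at 251 and 252 in Control and at 360, 361 and 308 in Prox1 OE, and was not called (0.44, SE 0.17, limma adjusted p = 0.0787, but 0.044 with DESeq2 and 0.0485 with upper-quartile factors). Slc25a42, which brings coenzyme A into the matrix, was at 1273 and 1382 in Control and at 2454, 2210 and 2493 in Prox1 OE (0.84, SE 0.12, limma adjusted p = 0.00326). Slc25a16, related to it, was at 1664 and 1885 in Control and at 2563, 1606 and 2292 in Prox1 OE, with overlapping groups (0.25, limma adjusted p = 0.361, and -0.18 with total counts as library size).

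The peroxisomal carrier Slc25a17 was called higher at 0.64, and missed without Control replicate 1 (adjusted p = 0.123) or replicate 2 (0.0595), as Slc25a42 did without Control replicate 1 (0.0503). Slc25a51, which brings NAD into the matrix, was at 3355 and 3428 in Control and at 2817, 3486 and 3627 in Prox1 OE. Its difference was -0.04 (SE 0.14, limma adjusted p = 0.828), with the Control values inside the range of the Prox1 OE values, and the sign turned without Prox1 OE replicate 1 (0.07) and with upper-quartile factors (0.03). With total counts as library size it was called lower (-0.47, adjusted p = 0.0222). The carriers for S-adenosylmethionine (Slc25a26) and folate (Slc25a32) were both at 0.20 and were not called, and both were at -0.23 with total counts as library size.

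Of the mitoferrins, which bring iron into the matrix for haem and iron-sulphur clusters, 1 of 2 was called. Slc25a37, the form of the red cell lineage, was at 859 and 1046 in Control and at 1368, 1307 and 1520 in Prox1 OE (0.56, SE 0.14, limma adjusted p = 0.0217). Slc25a28, the more widely expressed form, was at 1282 and 1292 in Control and at 1470, 1929 and 1726 in Prox1 OE. All Prox1 OE libraries of Slc25a28 lay above Control, and the difference did not pass (0.40, SE 0.14, limma adjusted p = 0.0661), though it did without Prox1 OE replicate 1 (0.0135), with DESeq2 (0.0421) and with upper-quartile factors (0.0457), and it was -0.03 with total counts as library size. Slc25a37 was not called without Control replicate 1 (0.219), Control replicate 2 (0.06) or Prox1 OE replicate 3 (0.0571), with total counts as library size (0.5) or without the trend (0.0531). Erythroid markers moved with the groups, with summed levels of 4944 and 7502 in Control and 8412 to 17952 in Prox1 OE and 1 of 6 tested (Alas2) called higher, though none without Control replicate 2, and their part in Slc25a37 was not tested.

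None of the 4 tested uncoupling proteins and relatives was called, with a median of -0.34, and with total counts as library size 3 were called lower. Ucp2, the uncoupling protein of many tissues and the abundant one here, was at 15605 and 15245 in Control and at 20304, 19286 and 16680 in Prox1 OE. Its groups did not overlap and its difference missed the threshold (0.28, SE 0.14, limma adjusted p = 0.153, and -0.15 with total counts as library size). Slc25a14 and Slc25a30 were both at -0.45 (limma adjusted p = 0.0813 and 0.0518), with every Prox1 OE library below both Control libraries in Slc25a14 and in Slc25a30, and Slc25a27 was at -0.23. Slc25a30 passed without Prox1 OE replicate 1 (0.0128) and with DESeq2 (0.0357).

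The carriers outside these role groups, Slc25a46 of the outer membrane among them, gave 3 higher and 1 lower of 8, with a median of 0.08 (-0.35, 1 higher and 2 lower, with total counts as library size). Slc25a47, a carrier found mostly in liver, had the largest difference of the 43, except with total counts as library size, where it was 1.46 and Slc25a36 was -1.65. It was at 5878 and 9935 in Control and at 22011, 28508 and 36036 in Prox1 OE, and the lowest Prox1 OE library was 2.22 times the highest Control library (log2 fold change 1.89, SE 0.27, limma adjusted p = 0.00354). With each library left out the log2 fold change ranged from 1.51 to 2.27, and the call held each time. Slc25a34 was at 150 and 133 in Control and at 306, 284 and 258 in Prox1 OE (0.99, SE 0.19, limma adjusted p = 0.00789). Slc25a48 was lower, at 4477 and 4447 in Control and at 2493, 3248 and 2293 in Prox1 OE (-0.75, SE 0.16, limma adjusted p = 0.0122). Slc25a45 was called higher at 0.54. Without Control replicate 1 or 2 the calls of Slc25a34 (log2 fold change then 1.08 and 0.90), Slc25a48 (-0.75 and -0.76) and Slc25a45 (0.54 and 0.54) were lost. Slc25a45 also lost its call without Prox1 OE replicate 3 (limma adjusted p = 0.06) or the trend (0.0808), and Slc25a34 with total counts as library size (0.0759). Slc25a43, the tested carrier with the fewest reads, was at 31.2 and 28.0 in Control and at 17.4 or less in every Prox1 OE library, with no overlap (-0.86, SE 0.36, limma adjusted p = 0.106, but 0.0202 without the trend).

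The start region of Slc25a47, the carrier with the largest increase in the fit to all libraries, is at chr12:108850879-108851178 on the plus strand. Capitals mark a nuclear receptor element (AGGTCA, here on the other strand) and CCAAT boxes.
Slc25a47: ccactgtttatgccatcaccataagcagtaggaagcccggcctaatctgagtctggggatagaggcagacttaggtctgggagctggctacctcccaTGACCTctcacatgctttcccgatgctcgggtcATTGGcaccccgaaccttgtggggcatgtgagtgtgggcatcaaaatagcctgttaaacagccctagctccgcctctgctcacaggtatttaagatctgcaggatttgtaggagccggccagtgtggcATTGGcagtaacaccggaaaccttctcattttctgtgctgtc
It has no GC box, unlike most of the family. The GENCODE gene model of Slc25a47 begins 15083 bases upstream of this RefSeq start, 162 bases from the divergent gene Slc25a29, which was not called, and which of the starts was used in these tumours was not tested.

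Among the 34 tested carriers with a RefSeq window, 30 had a GC box. By window, 86.4% of 44 carrier windows held GGGCGG, against 35.7% of all 32851 windows, and 50% against 37.4% held the CCAAT box. The TATA box (TATAAA) stood in 2.27% of the carrier windows (Slc25a21) and 13.6% of all. The E box CACGTG was found in 15.9% against 7.15%, and the 6 genes with it (Slc25a1, Slc25a13, Slc25a14, Slc25a15, Slc25a33 and Slc25a36) included 3 called higher, 1 called lower and 2 not called. AGGTCA was in 9.09% against 16.3%, and all 4 genes with it (Slc25a34, Slc25a39, Slc25a45 and Slc25a47) were called higher, of 17 called higher, 3 called lower and 14 not called that had a window. The ETS motif CCGGAAG was in 13.6% against 8.86%, the NRF1 motif in 4.55% against 6.23%, the sterol element TCACNCCAC in 2.27% against 1.24%, and the HNF4 motif CAAAGTCCA in 0 against 0.475%. Both strands were searched. Carrier windows were also richer in G and C, with a median of 59.3% against 52.7% over all windows. The median ratio of observed to expected CpG was 0.603 against 0.384. All windows cover 27025 genes with no minimum count, while the carriers had passed one. Whether other expressed genes share these traits was not tested.

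Per kilobase of exon, which allows levels of different genes to be compared, the family was dominated by a few carriers. In Control the 5 highest took 52.5% of the family's summed level and in Prox1 OE 62.7%. Slc25a5 led in both, at 10012 ± 751 (SD, n = 2) normalised counts per kilobase in Control and 15352 ± 1531 (SD, n = 3) in Prox1 OE, and Slc25a39 followed at 5885 ± 540 and 12712 ± 1012. In Control Slc25a1 (3249) and Slc25a3 (3099) came next with overlapping libraries, and Slc25a4 (2656), Slc25a47 (2649), Ucp2 (2207), Slc25a11 (2182) and Slc25a10 (2091) each overlapped its neighbour in the order. In Prox1 OE Slc25a47 was next after Slc25a39 at 9666 ± 2351, its libraries overlapping those of Slc25a39 and Slc25a1 (8169) below, and Slc25a10 followed at 5888. Slc25a4 moved from rank 5 to rank 9, at 2335, where its libraries overlapped those of Ucp2 (2684). The lowest tested carriers were Slc25a53 and Slc25a43, at 11.8 and 16.6 in Control and 11.0 and 8.95 in Prox1 OE. Summed over the 43 carriers without regard to length, the family took 0.346 and 0.363% of the counts in Control and 0.438 to 0.448% in Prox1 OE. Exon length is that of all annotated exons together, so genes with long untranslated exons, or with a start that was not used, read low.

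**Figure D3:**
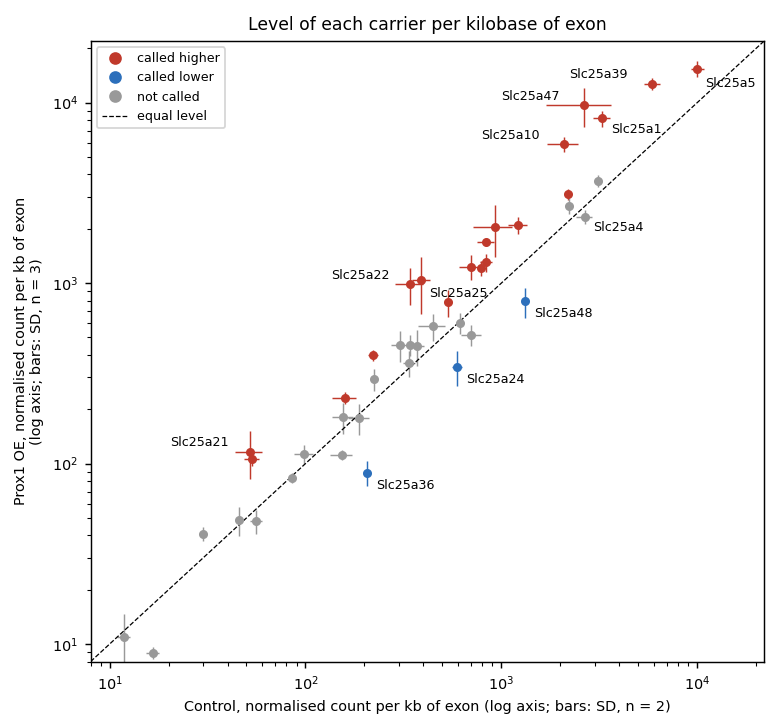
Mean level of each of the 43 carriers, in normalised counts per kilobase of exon, in Control (horizontal) and Prox1 OE (vertical), both log axes, with bars for 1 SD and a dashed line of equal level. Slc25a47, Slc25a10 and Slc25a1 lie well above the line among the abundant carriers, and Slc25a36, Slc25a24 and Slc25a48 lie below it.

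Ratios within related pairs barely depend on library scaling, since both genes share it. Of 10 pairs listed, 7 had both genes tested, and in 6 of these the log2 ratios of the groups did not overlap. Of single genes, 30.9% were all above and 32.4% all below Control. The share over ratios of other gene pairs was not tested, so the count is not read as particular to these pairs. With 2 against 3 libraries the exact permutation test has 10 splits and cannot go below p = 0.1, so no pair could reach 0.05. The log2 ratio of Slc25a25 to Slc25a24 was 0.43 and 0.76 in Control and 1.77, 3.02 and 3.42 in Prox1 OE, a difference of 2.14 (exact permutation p = 0.2, two-sided, adjusted over the 7 pairs 0.233). Per kilobase, Slc25a25 made up 36.9 and 42.4% of the pair in Control and 59.8, 77.9 and 82.4% in Prox1 OE, so that the more abundant member differed between the groups. The ratio of Slc25a36 to Slc25a33 was lower by -1.59, and Slc25a36 fell from 33.8 and 29.7% of the pair to 18.2, 11.0 and 11.9%.

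The other pairs differed by less. Slc25a5 over Slc25a4 was higher by 0.80, and Slc25a5 rose from 77.0 and 81.0% of the ADP/ATP pair per kilobase to 86.2, 85.0 and 88.9%. Slc25a13 over Slc25a12 was higher by 0.69, with citrin at 79.7 and 81.9% in Control and 85.0, 87.1 and 89.0% in Prox1 OE. Slc25a42 over Slc25a16 was higher by 0.59, and Slc25a40 over Slc25a39 was lower by -0.67. For these 4 pairs and for Slc25a36 over Slc25a33 the exact permutation p was 0.1, the smallest the design allows, and 0.14 adjusted over the 7 pairs. Slc25a28 over Slc25a37 overlapped between the groups (-0.16, exact permutation p = 0.5).

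**Figure D4:**
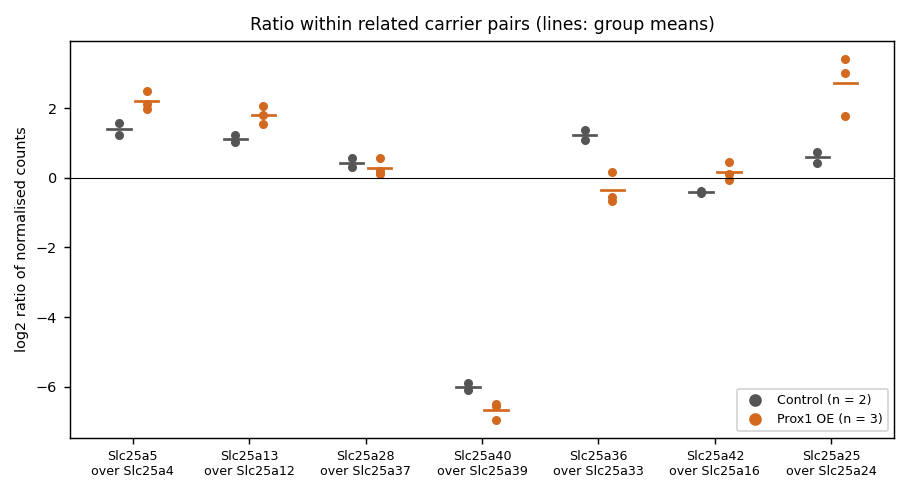
Log2 ratio of normalised counts within each of the 7 tested pairs of related carriers, in the 2 Control and 3 Prox1 OE libraries, with a line at each group mean. The groups are apart in 6 pairs, with the widest gap for Slc25a25 over Slc25a24 (2.14), and overlap for Slc25a28 over Slc25a37.

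The 7 carriers under the minimum were low or at 0. Slc25a2, a second ornithine carrier, reached 16.5 normalised counts in a single library, and Slc25a31, the ADP/ATP carrier of germ cells, 9.26. Ucp3, the uncoupling protein of muscle, reached 3.47 and Ucp1, that of brown fat, 1.18. Slc25a18, the glutamate carrier related to Slc25a22, and Slc25a41 reached 0.848 each, and Slc25a54 was at 0 in all libraries. A floor of 3 reads corresponds to 2.46 to 3.54 normalised counts, so Slc25a18, Slc25a41, Slc25a54 and Ucp1 did not pass it in any library. Of the 4 muscle markers Myh4 was at 0 in all 5 libraries, Tnnt3 reached 6.94, Acta1 ranged from 12.3 to 43.2, and Ckm ranged from 1.16 to 4.09 in all but Control replicate 1, where it was 111. Of the 3 germ cell markers Tnp1 was at 0 in all libraries, Tex101 reached 1.02 and Ddx4 reached 10.4. Of brown fat markers other than Ucp1, Cidea was called higher and Prdm16 lower, the latter not without Control replicate 1 or 2.

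Enzymes that work with the carriers rose almost throughout, with 15 of 16 called higher, none lower and a median log2 fold change of 1.30. With total counts as library size 13 were called higher, without Control replicate 1 it was 6 and without Control replicate 2 it was 10. In the urea cycle Otc, which uses ornithine, was higher by 2.21, Ass1, which uses aspartate, by 2.46 and Cps1, which takes up ammonia, by 1.72. Gls2, the liver glutaminase, was higher by 2.74. Acly, which splits the citrate exported by Slc25a1, was higher by 1.39, and Cpt2 and Crat, which act on acylcarnitines, by 1.20 and 1.15. The transaminases of the malate-aspartate shuttle, Got1 and Got2, were higher by 1.47 and 1.12. Pck1, the gluconeogenic enzyme, was not called (1.96, limma adjusted p = 0.0778), with 6870 and 12639 normalised counts in Control and 11297, 56549 and 74609 in Prox1 OE. Cps1 is also among the hepatocyte markers, all 8 of which were higher.

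Genes of mitochondrial content and of carrier import had smaller median differences than the enzymes that work with the carriers. Of 10 content genes 5 were called higher (Cs, Hspd1, Lonp1, Phb and Phb2) and none lower, with a median of 0.45, beside 0.40 for the carriers. Of 13 genes of the TIM22 import route 3 were called higher (Timm8a1, 0.54, Timm8b, 0.64, and Timm13, 0.68), where 17.1% of all genes were, with a median of 0.33. None of either list was called higher without Control replicate 1 or 2, where fewer of all genes were called and the medians stayed at 0.36 and 0.50 for content and 0.26 and 0.31 for import. With total counts as library size none was called higher and 1 import gene was called lower, with medians of 0.02 and -0.10. Other transporters of the mitochondrial membranes gave 6 higher and 1 lower of 16, with a median of 0.28. Both subunits of the pyruvate carrier were higher (Mpc1, 1.03, and Mpc2, 0.82), as was Sfxn5 (1.04), while Sfxn3 was lower (-1.01). With total counts as library size these transporters gave 2 higher and 3 lower, and without Control replicate 1 none higher and 1 lower.

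Among 10 regulators of mitochondrial and metabolic genes 5 were called higher and 1 lower, with a median of 0.66 (1 higher and none lower without Control replicate 1, and 3 higher and 2 lower with total counts as library size). Mlxipl (ChREBP), which responds to glucose, was higher by 1.52, Hnf4a, a hepatocyte factor, by 1.15, the bile acid receptor Nr1h4 by 0.90 and Srebf1, a factor of lipid synthesis, by 0.73. Ppargc1b was low, at 23.0 and 17.0 normalised counts in Control and 63.4, 31.9 and 72.9 in Prox1 OE. It was higher by 1.38 (SE 0.43, limma adjusted p = 0.045). Nrf1, the nuclear respiratory factor, was lower (-0.42, limma adjusted p = 0.0464), and the coactivator Ppargc1a was not called (0.19, limma adjusted p = 0.467). Gabpa, the ETS factor of mitochondrial genes, was at -0.25 (limma adjusted p = 0.252).

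Prox1 OE replicate 1 lay at an end of its group for some carriers. It was the lowest of the 3 for Slc25a47, Slc25a22, Slc25a25 and Slc25a15, and for Pck1 and the hepatocyte enzyme Tat (12552, against 37573 and 59699), and it was the highest for Slc25a10, Slc25a36, Slc25a24, Slc25a34 and Slc25a12. Any of 3 libraries is often at an end, and whether replicate 1 was so more often than the others was not tested. The ratio of the highest to the lowest Prox1 OE library was 2.12 for Slc25a25, 1.88 for Slc25a15 and 1.84 for Slc25a21, and 1.11 for Slc25a20 and 1.13 for Slc25a42. The relation of these levels to the amount of Prox1 was not tested. Gene bodies overlapped, on the other strand, a gene with a mean of at least 10 normalised counts for Slc25a10 (Gm11788), Slc25a11 (Rnf167), Slc25a23 (Crb3), Slc25a25 (Naif1), Slc25a26 (Lrig1), Slc25a35 (Rangrf), Slc25a46 (B930094E09Rik), Slc25a53 (Zcchc18) and Ucp2 (Dnajb13), and whether the counting used strand was not given in the sources used here.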

How the data were processed

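RNA from 5 liver tumours was sequenced by the authors as pairs of 100 base reads from strand-marking dUTP libraries, mapped with STAR to mm10 and normalised with DESeq2. The counting tool was not given in the sources used here. The deposited table holds, per the authors, a signal per gene and library: reads divided by a size factor. All values (100%, within 0.001) were whole multiples of the worth of a single read, 0.822 to 1.18 normalised counts, so reads were recovered for the count tests. A deposited table of the authors' own fold changes was not used. Members and lists were chosen with earlier results of these data known. Identifiers matched GENCODE M21 for 55137 genes.

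The main test was limma 3.58.1 with a mean-variance trend (R 4.3.3) on log2(normalised count + 1), two-sided, which understates changes of low genes. It was fitted to genes with a mean of at least 10. Alternatives were DESeq2 1.42.0 and the edgeR 4.0.16 quasi-likelihood test on those reads, other scalings, pseudocounts, filters and thresholds, a replicate block and leaving out each library. Pair ratios were tested by exact permutation (Python 3.11.15, scipy 1.17.1). Named with values in every library were called carriers (the 10 largest in each direction), both genes of each pair, Slc25a1, Slc25a3, Slc25a10, Slc25a11, Slc25a20, Slc25a47 and Slc25a51. A fit without 1 Control library assumes that the lone library varies like the others. Fewer of all genes pass such a fit, so a call lost there need not mean a smaller difference. Replicates are separate samples per the labels, which do not say that each came from its own mouse, so p-values measure the spread between these samples. Floors cover counting error only. Some items are counted in the totals and not reported here by name. Sequences are from RefSeq (GRCm38.p6), and near-identical copies were sought among GENCODE transcripts at 95% identity over at least 300 bases.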

Additional observations from a re-analysis of the deposited data

How the results depend on the processing

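The count of carriers called higher (19) stayed within 1.5 times under TMM (20) and upper-quartile factors (22), both pseudocounts (19 each), both filters (18 with none, 20 with a mean of at least 50), no trend (16), edgeR (20) and DESeq2 (22). It was 10 with total counts as library size, 10 at an adjusted p under 0.01 and 9 with a log2 fold change of at least 1, and 6 to 23 when each library was left out (6 without Control replicate 1, 10 without Control replicate 2). The count called lower (3) was 9 with total counts, 1 at each stricter threshold, and 1 to 4 when each library was left out. The median log2 fold change (0.40) was -0.032 with total counts, 0.48 with upper-quartile factors and 0.39 to 0.50 with a library left out. With total counts the sign turned, among others, for Slc25a26 and Slc25a32 (-0.23 each), Slc25a16 (-0.18), Slc25a28 (-0.032), Slc25a3 (-0.18), Slc25a33 (-0.064) and Ucp2 (-0.15), with upper-quartile factors for Slc25a51 (0.034), all of them not called. With a library left out Slc25a12 ranged from -0.24 to 0.046 (0.046 without Control replicate 1, 0.0005 without Prox1 OE replicate 2) and Slc25a51 from -0.11 to 0.068. Of 486 values of 27 named carriers under alternatives, 422 kept their direction and side of the threshold, 47 lost and 8 gained the call. The cause was not tested, except that stricter thresholds pass fewer genes by construction. Replicate numbers 1 and 2 correlated at 0.14 and 0.016 in their deviations and do not pair the samples. With the replicate block, which uses 4 libraries, 18 were called higher and 3 lower. Slc25a43 and Slc25a53, the tested carriers with the fewest reads, had the largest SEs (0.36 and 0.31).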
